A study of Mus musculus with 40 samples.

Results

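Claudins are the membrane proteins that close the space between neighbouring cells at tight junctions, and 9 of them were followed here in mouse liver: Cldn1, Cldn2, Cldn3, Cldn4, Cldn5, Cldn6, Cldn7, Cldn12, and Cldn14. They are 9 of the 55487 genes of the count table, taken by gene symbol with earlier results of these data known, and were assigned by cell type as hepatocyte claudins (Cldn1, Cldn2, Cldn3), bile duct claudins (Cldn4, Cldn6, Cldn7), and an endothelial claudin (Cldn5), with Cldn12 and Cldn14 in none of these. RNA of whole liver was sequenced from female mice lacking Nampt in hepatocytes (HNKO) and from WT littermates, which were put on a purified control diet (PD) at 9 weeks of age and fed it for 3, 6, 12, or 21 days. HNKO mice carried Nampt fl/fl and 1 copy of Alb-Cre, in which the albumin promoter drives the recombinase, and the WT littermates carried the floxed Nampt without Cre, so that all groups share the floxed allele. The strain label is C57BL/6JBomTac, and the labels list the numbers of days as age, whereas the study's methods give them as time on the diet.

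Of 40 libraries, each from 1 mouse, 38 were used: 5 WT and 5 HNKO at day 3, 4 and 5 at day 6, 5 and 6 at day 12, and 5 and 3 at day 21. HNKO libraries 17 and 18 of day 21 were described as failing quality control and were left out, and the 3 HNKO libraries that remain at day 21 all come from the libraries numbered 22 to 41. Total counts were 16151037 to 64181492 per library, and the 9 claudins together took 0.0287 to 0.0573% of them. Nampt, the targeted gene, was 57.4 to 155 CPM (fragments of the gene per 1000000 of the library's total after TMM scaling) over the WT libraries and 30.3 to 82 CPM over the HNKO libraries, and it was lower in HNKO at days 3, 6, and 12 but did not pass the test at day 21 (log2 fold change -0.69 ± 0.27 SE, adjusted p = 0.161), although all HNKO libraries were below all WT libraries (exact two-sided permutation p = 0.0179, the smallest possible). At day 6, where it was called, the genotypes overlapped (exact permutation p = 0.0635). Hepatocyte markers were present in every library, with a summed level of 67000 to 158000 CPM over 8 genes. In bulk RNA, fewer cells of a type and less RNA per cell cannot be told apart.

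In a hepatocyte, claudins seal the bile canaliculus from the blood side, and each family member sets which ions and molecules may pass. Claudin-1 and claudin-3 form barriers, claudin-2 forms a pore for cations and water, and claudin-5 closes the junctions of endothelial cells. Claudin-4 and claudin-7 belong to many simple epithelia, among them bile ducts, and claudin-6 is best known from embryonic epithelia.

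Cldn4 (5: 134945119-134946934, minus strand) is a single-exon gene of 1816 bases, and its neighbour Cldn3 (5: 134986214-134987472, plus strand, 1 exon of 1259 bases) lies 39279 bases away. Cldn6 (17: 23679249-23682446, plus strand) and Cldn7 (11: 69964779-69967885, plus strand) have 3 and 5 separate exon blocks. All positions are in GRCm38. Since Cldn4, Cldn6, and Cldn7 were called higher in HNKO and Cldn3 was not, the stretches just upstream of these 4 genes are shown, from the RefSeq promoter windows of GRCm38.p6 and cut where the first annotated exon begins. They span chr5:134946935-134947184 (minus strand), chr17:23679115-23679248, chr11:69964529-69964778 (the first of 2 windows of this gene), and chr5:134985964-134986213 (plus strand for these last 3). Capitals mark matches on either strand to TGANTCA (the AP-1 motif), GGAATG (TEAD), AACNNGTT (grainyhead-like), or GGGCGG (SP/KLF).
Cldn4: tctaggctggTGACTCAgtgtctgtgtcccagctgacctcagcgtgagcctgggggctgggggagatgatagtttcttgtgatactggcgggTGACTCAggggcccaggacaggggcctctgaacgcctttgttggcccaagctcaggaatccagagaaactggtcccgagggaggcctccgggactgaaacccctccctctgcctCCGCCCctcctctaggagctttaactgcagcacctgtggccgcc
Cldn6: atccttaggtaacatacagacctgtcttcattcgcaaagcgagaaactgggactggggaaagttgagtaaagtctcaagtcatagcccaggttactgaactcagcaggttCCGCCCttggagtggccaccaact
Cldn7: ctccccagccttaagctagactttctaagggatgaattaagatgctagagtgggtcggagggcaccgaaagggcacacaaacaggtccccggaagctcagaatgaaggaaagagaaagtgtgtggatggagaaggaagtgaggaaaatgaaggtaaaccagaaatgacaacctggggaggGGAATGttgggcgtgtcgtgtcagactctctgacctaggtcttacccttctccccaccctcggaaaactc
Cldn3: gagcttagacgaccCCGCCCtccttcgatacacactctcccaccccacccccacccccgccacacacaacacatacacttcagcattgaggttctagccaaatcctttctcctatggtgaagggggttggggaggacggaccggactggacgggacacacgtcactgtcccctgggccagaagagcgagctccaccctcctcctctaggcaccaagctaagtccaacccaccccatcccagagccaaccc

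The Cldn4 stretch held 2 matches to TGANTCA, a motif found at least 2 times in 0.338% and at least 1 time in 6.75% of 32851 windows of 250 bases. It also held 1 match to GGGCGG, as did those of Cldn6 and Cldn3, where the share of all windows is 32.7% at 250 bases and 14.5% at the 134 bases left for Cldn6. The Cldn7 stretch held 1 match to GGAATG, found in 12.6% of windows. None of the 4 stretches held AACNNGTT (3.64% of windows of 250 bases and 2.15% of those of 134 bases), and no motif was found in all of Cldn4, Cldn6, and Cldn7. The matches do not overlap each other and describe these letters only.

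The 3 bile duct claudins were called higher in HNKO livers at all 4 days, Cldn4 the most, whereas the 3 hepatocyte claudins and the endothelial Cldn5 were not called at any day, and Cldn12 was slightly lower. The calls of day 21 were lost without HNKO library 37, and that of Cldn7 was lost in other fits as well. Over the mean of the 4 days, Cldn4 was 11.8-fold, Cldn6 4.74-fold, and Cldn7 3.65-fold higher in HNKO, with adjusted p = 1.19e-08, 4.37e-09, and 7.13e-07 (edgeR's quasi-likelihood test with Benjamini-Hochberg adjustment over the 20297 genes tested, in which an adjusted p under 0.05 is called). Cldn4 and Cldn6 passed the low-count filter because of HNKO, with 0 and 1 of 19 WT libraries over its limit. Their p-values and the counts that follow are therefore those of genes tested through the group where they are high. At days 3, 6, 12, and 21, 3, 4, 3, and 3 of the 9 claudins were called, against 4.66%, 12.8%, 7.82%, and 3.12% of all genes tested. Every HNKO library lay above every WT library for 3, 3, 1, and 2 claudins at these days, and non-overlap in either direction was found for 4.11%, 12.8%, 4.79%, and 13.9% of all genes. Over the mean of the days 4 of 9 were called, against 36.4% of all genes. The median log2 fold change of the 9 claudins over the mean of the days was 0, that of all genes was -0.01, and that of the duct claudins was 2.24.

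Cldn4, which is part of the barrier of simple epithelia, was almost undetected in WT liver. The 19 WT libraries held 0 to 9 fragments of it, and 3 held none, which allows up to 0.118 to 0.178 CPM in them (3 counts, counting error only). At day 3 the WT libraries were at 0, 0.0455, 0.0649, 0.0801, and 0.141 CPM and the HNKO libraries at 0.273, 0.369, 0.774, 1.91, and 2.36 CPM. At day 6 the WT libraries were at 0, 0.0434, 0.103, and 0.195 CPM and the HNKO libraries at 0.751, 0.816, 1, 1.2, and 3.57 CPM. HNKO and WT did not overlap at either day. At day 12 the 5 WT libraries ranged from 0.0305 to 0.274 CPM (median 0.0735) and the 6 HNKO libraries from 0.251 to 1.33 CPM (median 0.68), so that 1 WT library stood above the lowest HNKO library. At day 21 the WT libraries were at 0, 0.0779, 0.0789, 0.0883, and 0.106 CPM, all below the HNKO libraries at 0.369, 0.574, and 1.61 CPM. The log2 fold changes were 3.89 ± 0.75 (SE), 4.12 ± 0.81, 2.82 ± 0.68, and 3.42 ± 0.77, with adjusted p = 0.00333, 0.000975, 0.0109, and 0.0135 in edgeR's test. These folds rest on summed WT counts of 9, 7, 15, and 13 fragments, and leaving out WT library 27 at day 6 or WT library 34 at day 12 moved the log2 fold change to 4.9 and 3.67. Without HNKO library 29, the highest of day 6, it was 3.46 (adjusted p = 0.00697).

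**Figure D1:**
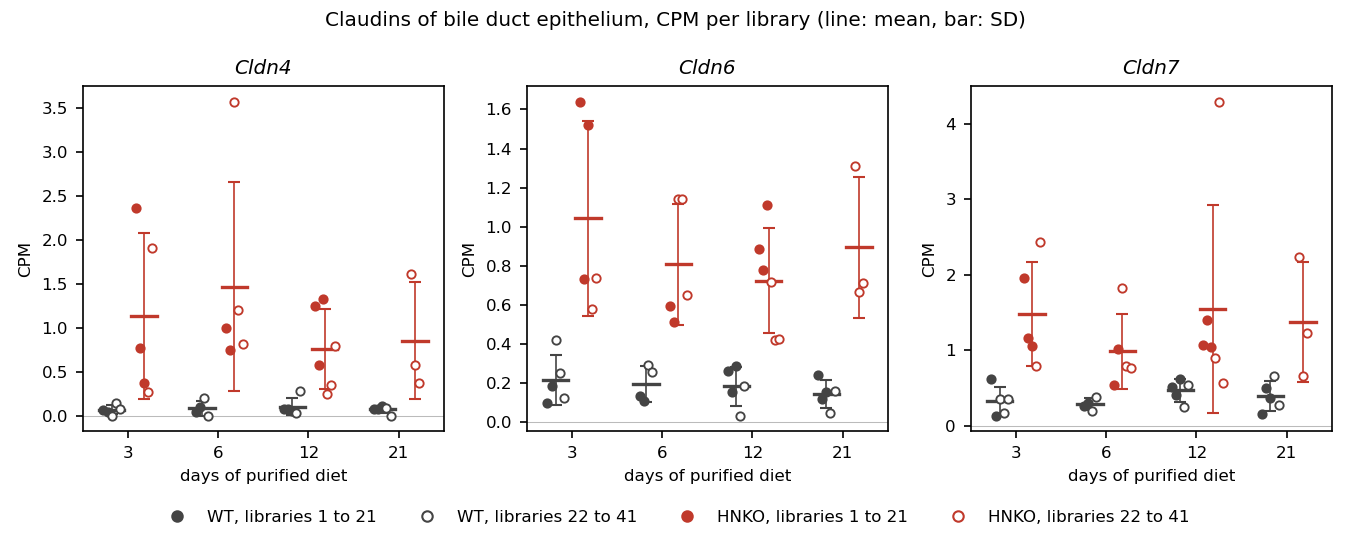
Levels of Cldn4, Cldn6, and Cldn7 in CPM (y axis, from 0) by days of PD (x axis), with 1 point per library, WT in grey and HNKO in red, filled for libraries 1 to 21 and open for 22 to 41, lines for the group mean and bars for the SD. HNKO points lie above WT points at every day for Cldn6, and single libraries stand high for Cldn4 at day 6 (3.57 CPM) and for Cldn7 at day 12 (4.29 CPM).

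Cldn6, the embryonic claudin, was the most even of the 3 duct members. At day 3 the WT libraries were at 0.0973, 0.12, 0.182, 0.247, and 0.416 CPM and the HNKO libraries at 0.577, 0.731, 0.738, 1.52, and 1.64 CPM. At day 6 the WT libraries were at 0.103, 0.13, 0.253, and 0.292 CPM and the HNKO libraries at 0.512, 0.591, 0.647, 1.14, and 1.14 CPM. All HNKO libraries exceeded all WT libraries at both days. At day 12 WT ranged from 0.0305 to 0.287 CPM and HNKO from 0.416 to 1.11 CPM, and at day 21 WT libraries were at 0.0442, 0.117, 0.152, 0.157, and 0.237 CPM and HNKO libraries at 0.662, 0.708, and 1.31 CPM, again without overlap. Cldn6 thus separated the genotypes at all 4 days. The log2 fold changes were 2.34 ± 0.43 (SE), 2.02 ± 0.48, 2.01 ± 0.42, and 2.61 ± 0.47, with adjusted p = 0.00264, 0.00461, 0.0049, and 0.0028 in edgeR's test.

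Cldn7, a claudin found along the lateral membrane of epithelial cells, had the highest mean level per kilobase of the duct members in both genotypes over all days. In HNKO it was above Cldn4 in 11 of 19 libraries, and at day 6 its HNKO mean (0.508 CPM per kilobase) was below that of Cldn4 (0.807). At day 3 WT libraries were at 0.136, 0.176, 0.357, 0.36, and 0.616 CPM and HNKO libraries at 0.79, 1.06, 1.16, 1.96, and 2.43 CPM. At day 6 WT libraries were at 0.195, 0.26, 0.308, and 0.379 CPM and HNKO libraries at 0.546, 0.76, 0.797, 1.02, and 1.82 CPM. The genotypes did not overlap at these days. At day 12 WT ranged from 0.244 to 0.622 CPM and HNKO from 0.563 to 4.29 CPM, and at day 21 WT libraries were at 0.158, 0.275, 0.365, 0.506, and 0.663 CPM and HNKO libraries at 0.662, 1.23, and 2.23 CPM, with the lowest HNKO library just inside the WT range at both days. The log2 fold changes were 2.13 ± 0.49 (SE), 1.8 ± 0.55, 1.73 ± 0.45, and 1.82 ± 0.52, with adjusted p = 0.0109, 0.0277, 0.0173, and 0.0453 in edgeR's test. Cldn7 had the weakest support of the 3: without HNKO library 35 the log2 fold change at day 12 was 1.1 (adjusted p = 0.0836), and without HNKO library 29 that at day 6 was 1.46 (adjusted p = 0.134).

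The duct claudins were also compared within each series of library numbers. Comparing HNKO with WT libraries among those numbered 1 to 21 and among those numbered 22 to 41 gave 7 differences of mean log2 CPM per gene (prior count of 2, which shrinks low values), since no HNKO library of day 21 was in the first series. All 7 were positive for each of the 3 genes, from 1.38 to 3.53 for Cldn4, from 1.22 to 2.65 for Cldn6, and from 1.08 to 2.04 for Cldn7. HNKO and WT overlapped in 2 of these comparisons, both among libraries 22 to 41, for Cldn4 at day 12 and for Cldn7 at day 21. With the series as a covariate, Cldn7 at day 21 was not called (log2 fold change 1.68, adjusted p = 0.0698 in edgeR's test). In exact two-sided permutation tests of mean log2 CPM, Cldn4, Cldn6, and Cldn7 each had p = 0.00794 at day 3, the smallest that 5 against 5 libraries allow, and at day 21 they had p = 0.0179, 0.0179, and 0.0536, where 0.0179 is the smallest possible. At day 21 the rise rested on few mice: without HNKO library 37 none of the 3 was called (log2 fold changes 2.56, 2.24, and 1.31 for Cldn4, Cldn6, and Cldn7, adjusted p = 0.394, 0.116, and 0.56), with 2 HNKO libraries left. None of the 9 claudins showed a genotype by day interaction in edgeR's test, with 0 at an unadjusted p under 0.05 and 0 called by DESeq2, and 0% of all genes were called.

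**Figure D2:**
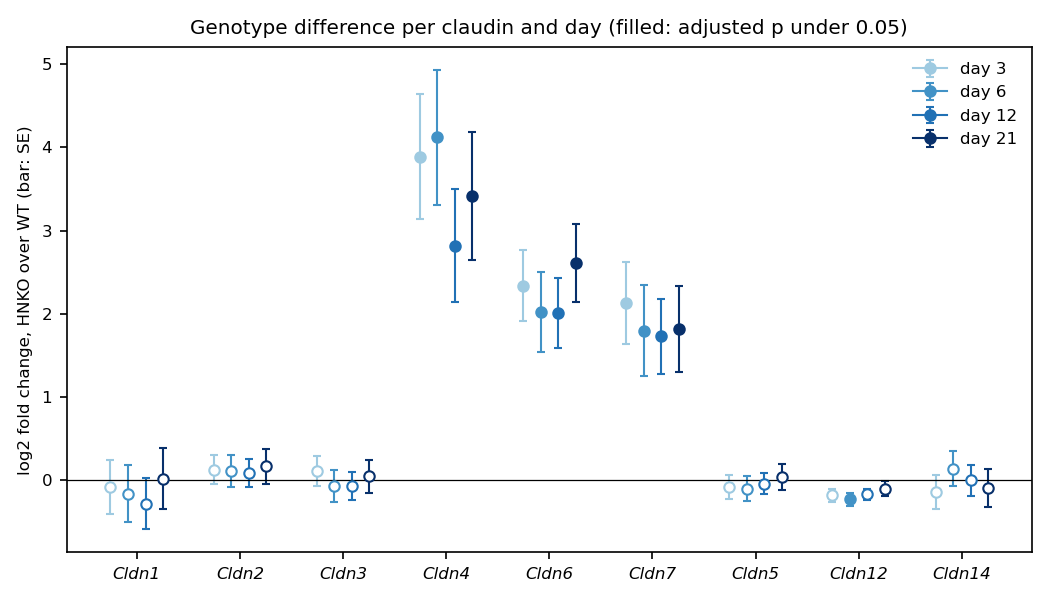
Log2 fold change of HNKO over WT (y axis) for each claudin (x axis) and day (shade), with the SE as bars and filled points for an adjusted p under 0.05. Cldn4, Cldn6, and Cldn7 lie between 1.73 and 4.12 at all days, and the other 6 claudins between -0.28 and 0.17.

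Markers of bile duct epithelium moved with the duct claudins. Of 9 such markers 8 were tested, and 5, 5, 4, and 3 were higher in HNKO at days 3, 6, 12, and 21, and 7 over the mean of the days, none lower. The shares of all genes called higher were 2.95%, 8.42%, 4.56%, 2.21%, and 19.2%. Over the mean of the days, the log2 fold changes were 2.92 ± 0.21 (SE) for Cftr, the chloride channel of duct cells, 2.71 ± 0.19 for Spp1, which encodes osteopontin, and 1.39 ± 0.16 for Epcam, an epithelial adhesion protein. The summed level of the 9 markers was 45.4 to 71.1 CPM over the WT libraries and 124 to 789 CPM over the HNKO libraries, with at most 2 markers at 0 counts in any library. Spp1 made up 84.4% of that sum in HNKO and 59% in WT, and without it the sum was 16.7 to 39 CPM in WT and 25 to 130 CPM in HNKO. Leukocyte markers moved as well: of 7, none was called at days 3 and 21, 3 were higher at day 6, 1 at day 12, and 3 over the mean of the days, none lower. Their summed level was 312 to 444 CPM in HNKO and 233 to 319 CPM in WT at day 6, and 245 to 308 and 259 to 323 CPM at day 3, with no marker at 0 in any library. At day 12 it was 175 to 268 CPM in HNKO and 138 to 225 CPM in WT, and at day 21 it was 235 to 289 and 155 to 256 CPM. The part of the duct and leukocyte markers in the claudin result was not tested.

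Within groups, Cldn7 varied with this sum from mouse to mouse by both Pearson's r and Spearman's rho, Cldn4, Cldn1, and Cldn2 did so by Pearson's r but not by rho, and the relation of Cldn6 with this sum did not pass the test. Over the 38 libraries, with the group means removed, Pearson's r with the log2 marker sum was 0.64 for Cldn4 (permutation p = 0.00193, adjusted p = 0.0248 over 90 relations) and 0.61 for Cldn7 (permutation p = 0.00016, adjusted p = 0.0051). Spearman's rho was 0.51 (permutation p = 0.0096, adjusted p = 0.0551) for Cldn4 and 0.57 (permutation p = 0.00096, adjusted p = 0.0156) for Cldn7. Leaving out libraries 22 and 29, the farthest from the median of the sum, r was 0.53 and 0.55. Within the 19 HNKO libraries r was 0.78 for Cldn4 and 0.73 for Cldn7, and within the 19 WT libraries it was 0.02 and 0.3. For Cldn6, r was 0.25 (permutation p = 0.162, adjusted p = 0.339) and rho 0.15 (permutation p = 0.432, adjusted p = 0.638). For Cldn1, r was 0.25 (permutation p = 0.0071, adjusted p = 0.0399) and rho 0.37 (permutation p = 0.018, adjusted p = 0.0886). For Cldn2, r was 0.41 (permutation p = 0.00842, adjusted p = 0.0423) and rho 0.36 (permutation p = 0.0344, adjusted p = 0.119). Without libraries 22 and 29 these r values were 0.21 and 0.29, and that of Cldn6 was 0.12. The relation was therefore not particular to duct claudins. When Spp1 was taken out of the sum, a choice made after seeing its share, r fell to 0.29 for Cldn4 (permutation p = 0.155, adjusted p = 0.339) and was 0.71 for Cldn7 (permutation p = 0.00017, adjusted p = 0.0051), with rho of 0.36 (permutation p = 0.0529, adjusted p = 0.154) and 0.55 (permutation p = 0.0014, adjusted p = 0.0157). Without libraries 29 and 35 these r values were 0.44 and 0.55. For Cldn6 against the sum without Spp1, r was 0.04 (permutation p = 0.832, adjusted p = 0.937).

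Among themselves, deviations of the 3 duct claudins from their group means showed no relation that passed the test. Pearson's r was 0.28 for Cldn4 and Cldn6 (permutation p = 0.123, adjusted p = 0.277; rho = 0.2, permutation p = 0.295, adjusted p = 0.492). It was 0.25 for Cldn4 and Cldn7 (permutation p = 0.189, adjusted p = 0.347; rho = 0.28, permutation p = 0.125, adjusted p = 0.268) and 0.04 for Cldn6 and Cldn7 (permutation p = 0.846, adjusted p = 0.937; rho = 0.07, permutation p = 0.726, adjusted p = 0.838). Without the 2 farthest libraries these r values were 0.17, 0.14, and -0.07. Within the 19 HNKO libraries they were 0.53, 0.37, and 0.18, and within the 19 WT libraries -0.05, -0.01, and -0.15, each given without a test. WT libraries held 0 to 9 fragments of Cldn4, 1 to 10 of Cldn6, and 3 to 24 of Cldn7, so that counting error limits what their deviations can show.

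The HNKO library highest in Cldn4 and the one highest in Cldn7 differed in the duct markers they carried. Library 29 of day 6 had the highest Cldn4 (3.57 CPM), the highest Spp1 (728 CPM), and the highest Sox9 (9.51 CPM), a transcription factor of the duct lineage, with Cldn7 at 1.82 CPM. Library 35 of day 12 had the highest Cldn7 (4.29 CPM) together with the highest Krt19 (40.1 CPM), a duct keratin, against 1.02 to 4.27 CPM in the 17 other HNKO libraries, and the highest Epcam (10.7 CPM). In library 35, however, Cldn4 was 0.352 CPM, Cldn6 0.416 CPM, and Spp1 98.9 CPM, all below the median of the 17 other HNKO libraries (0.788, 0.731, and 195 CPM), and its Cldn6 was the lowest of all 19.

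**Figure D3:**
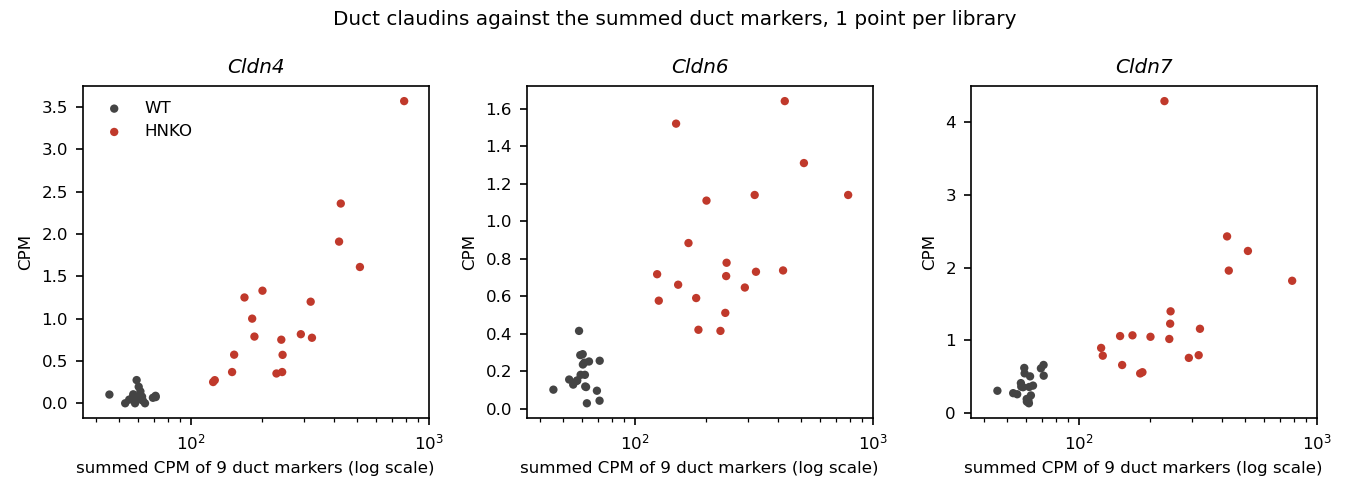
CPM of Cldn4, Cldn6, and Cldn7 (y axes) against the summed CPM of 9 bile duct markers (x axis, log scale), with 1 point per library, WT in grey and HNKO in red. WT libraries gather at 45.4 to 71.1 CPM of markers and HNKO libraries spread from 124 to 789 CPM, where the library highest in Cldn4 is the one with the highest sum and the library highest in Cldn7 is not.

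The hepatocyte claudins did not pass the test at any day. Cldn1 (16: 26356642-26371841, minus strand), which encodes a barrier claudin, varied widely among WT mice. WT libraries ranged from 110 to 183 CPM at day 3 (median 160) and were at 45.1, 47.5, 167, and 192 CPM at day 6. At day 12 they were at 25.1, 140, 150, 161, and 166 CPM, and at day 21 at 98 to 130 CPM. HNKO libraries were at 129 to 161, 65.7 to 134, 83.3 to 138, and 97.2 to 129 CPM at days 3, 6, 12, and 21, and the genotypes overlapped at each day. The difference over the mean of the days was -0.12 ± 0.17 log2 (SE; 95% interval -0.46 to 0.21; adjusted p = 0.61 in edgeR's test).

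The 3 low WT libraries of Cldn1 were 8 and 10 of day 6 and 16 of day 12. They also held the highest Nampt levels, at 155, 136, and 151 CPM, against 57.4 to 100 CPM in the 16 other WT libraries. All belong to the libraries numbered 1 to 21, and at day 6 the difference of mean log2 CPM was 0.73 in that series (2 HNKO and 2 WT libraries), with HNKO above WT, and -0.62 in the other (3 and 2 libraries), with HNKO below WT. The genes whose deviations from the group means were most like those of Cldn1 over the 38 libraries, among 12599 genes, were Il4ra (r = 0.94), a cytokine receptor chain, and Clock (r = 0.93), a circadian transcription factor. Clock was at 5.2, 5.82, and 5.74 log2 CPM in libraries 16, 8, and 10 and at 5.96 to 7.08 log2 CPM in the 16 other WT libraries, and over all 35 other libraries it ranged from 5.76 to 7.08, so that library 8 lay inside that range. The same 3 libraries had summed pericentral hepatocyte markers of 10200, 12600, and 12200 CPM, above the other WT libraries of days 6 and 12 (5980 to 9280 CPM) but below WT library 5 of day 3 (13400 CPM), where Cldn1 was 110 CPM. Over the 38 libraries that sum ran against Cldn1 (r = -0.58, permutation p = 0.0007, adjusted p = 0.0126; rho = -0.63, permutation p = 0.00024, adjusted p = 0.0108), and r was -0.56 without libraries 5 and 32. The summed periportal markers also ran against Cldn1 (r = -0.4, permutation p = 0.00892, adjusted p = 0.0423; rho = -0.47, permutation p = 0.00487, adjusted p = 0.0398; r = -0.37 without libraries 29 and 37). The periportal sum likewise ran against Cldn4 (r = -0.55, permutation p = 0.00113, adjusted p = 0.0169; rho = -0.55, permutation p = 0.00133, adjusted p = 0.0157). It ran against Cldn2 (r = -0.48, permutation p = 0.00551, adjusted p = 0.0354; rho = -0.43, permutation p = 0.018, adjusted p = 0.0886) and Cldn6 (r = -0.44, permutation p = 0.00947, adjusted p = 0.0426; rho = -0.38, permutation p = 0.0288, adjusted p = 0.113) as well. These r values were -0.45, -0.45, and -0.38 without libraries 29 and 37. The pericentral sum ran against Cldn2 (r = -0.48, permutation p = 0.00863, adjusted p = 0.0423; rho = -0.47, permutation p = 0.00818, adjusted p = 0.0526). It ran against Cldn4 (r = -0.47, permutation p = 0.0122, adjusted p = 0.0497; rho = -0.42, permutation p = 0.0234, adjusted p = 0.1) and Cldn7 (r = -0.48, permutation p = 0.00496, adjusted p = 0.0343; rho = -0.5, permutation p = 0.00364, adjusted p = 0.0364) as well. These r values were -0.53, -0.44, and -0.42 without libraries 5 and 32. With Cldn12 it ran in the other direction (r = 0.62, permutation p = 0.00037, adjusted p = 0.00832; rho = 0.62, permutation p = 0.00055, adjusted p = 0.0124; r = 0.67 without libraries 5 and 32). The summed hepatocyte markers ran against Cldn4 (r = -0.54, permutation p = 0.0039, adjusted p = 0.0343; rho = -0.51, permutation p = 0.00416, adjusted p = 0.0374; r = -0.42 without libraries 4 and 29). With that sum, the relations of the hepatocyte claudins Cldn1, Cldn2, and Cldn3 did not pass the test (r = -0.23, -0.15, and 0.13, permutation p = 0.0759, 0.405, and 0.454, adjusted p = 0.18, 0.618, and 0.638). The part of these genes in the Cldn1 comparison was not tested.

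Cldn2 (X: 139800828-139811386, plus strand), which encodes the pore-forming claudin of hepatocytes, ranged from 71.5 to 139 CPM in WT and from 75 to 135 CPM in HNKO. Its difference over the mean of the days was 0.13 ± 0.1 log2 (SE; 95% interval -0.06 to 0.31; adjusted p = 0.311), and the genotypes overlapped at every day. Cldn2 deviated from its group means together with Cldn1 (r = 0.59, permutation p = 0.00474, adjusted p = 0.0343; rho = 0.48, permutation p = 0.00727, adjusted p = 0.0503), and without libraries 8 and 16 r was 0.45. Cldn1 ran against Cldn3 by Pearson's r (r = -0.41, permutation p = 0.0115, adjusted p = 0.0491; rho = -0.36, permutation p = 0.0301, adjusted p = 0.113; r = -0.32 without libraries 8 and 16).

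Cldn3, the barrier claudin beside Cldn4 on chromosome 5, differed between the 2 ranges of library numbers more than between genotypes. In 6 of the 7 groups with libraries of both series, every library numbered 1 to 21 was above every library numbered 22 to 41. At day 3, for example, WT libraries were at 106 and 113 CPM in the first series and at 67.9, 73.3, and 82.3 CPM in the second, and HNKO libraries at 96.2, 115, and 120 CPM and at 71.8 and 76.1 CPM. The exception was WT at day 21 (means of 67.2 and 69.6 CPM). Within the series, the 7 HNKO differences lay between -0.1 and 0.05 log2, and over the mean of the days the fitted difference was 0 ± 0.09 (SE; 95% interval -0.18 to 0.18; adjusted p = 0.978). The labels do not say what distinguishes the 2 ranges of library numbers.

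**Figure D4:**
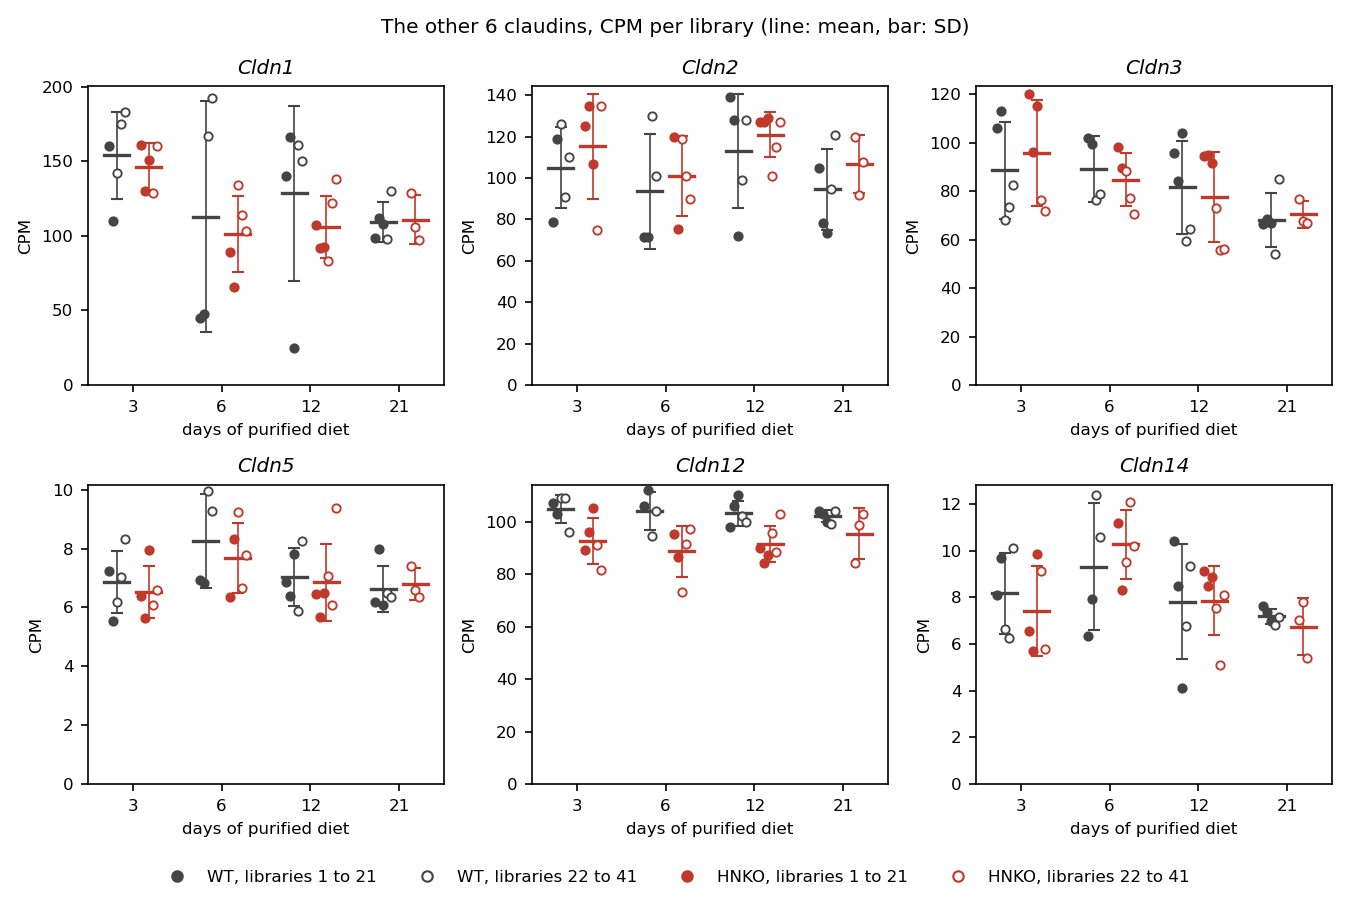
Levels of Cldn1, Cldn2, Cldn3, Cldn5, Cldn12, and Cldn14 in CPM (y axes, from 0) by days of PD (x axes), with 1 point per library, WT in grey and HNKO in red, filled for libraries 1 to 21 and open for 22 to 41, lines for the mean and bars for the SD. WT libraries at 45.1, 47.5, and 25.1 CPM stand low for Cldn1, filled points lie above open points for Cldn3 at days 3, 6, and 12 but not in WT at day 21, and HNKO means lie below WT means for Cldn12 at each day.

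Cldn5 (16: 18776847-18778262, plus strand), the claudin of endothelial junctions, was at 5.55 to 9.94 CPM in WT and 5.63 to 9.37 CPM in HNKO, with overlap at each day. The difference over the mean of the days was -0.04 ± 0.07 log2 (SE; 95% interval -0.19 to 0.1; adjusted p = 0.684). The summed level of 10 endothelial markers was 555 to 703 CPM in WT and 564 to 685 CPM in HNKO. With the group means removed, the relation of Cldn5 with that sum did not pass the test (r = 0.15, permutation p = 0.386, adjusted p = 0.607). Of the 10 markers 1 was higher and 2 were lower over the mean of the days, no larger a share than the 36.4% of all genes called, among them Kdr, the main VEGF receptor (-0.27 ± 0.05 log2, adjusted p = 3.99e-05), and Vwf, the von Willebrand factor (0.4 ± 0.1 log2, adjusted p = 0.00166). By single day 0, 1, 2, and 0 of the 10 were called at days 3, 6, 12, and 21, against 4.66%, 12.8%, 7.82%, and 3.12% of all genes. The 1 at day 6 was lower, and at day 12 1 was higher and 1 lower.

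Cldn12 (5: 5489537-5514958, minus strand), a widely expressed claudin, was lower in HNKO by a small amount. WT libraries ranged from 96 to 109 CPM at day 3 (median 107) and from 94.4 to 112 CPM at day 6 (median 105), and HNKO libraries from 81.7 to 105 (median 91) and from 73 to 97 CPM (median 91.4). At day 12 the ranges were 97.8 to 110 CPM in WT (median 102) and 84.2 to 103 CPM in HNKO (median 89.2), and at day 21 they were 99.2 to 104 and 84.3 to 103 CPM (medians 103 and 98.9). The genotypes overlapped at every day. The difference over the mean of the days was -0.17 ± 0.04 log2 (SE; 95% interval -0.25 to -0.09; adjusted p = 0.000914 in edgeR's test) and was negative in all 7 comparisons within a series, from -0.28 to -0.08. By single day, day 6 was called (-0.23 ± 0.08, adjusted p = 0.0489). Days 3 and 12 were not called (-0.18 ± 0.08 and -0.17 ± 0.07, adjusted p = 0.16 and 0.131), with exact permutation p = 0.0317 and 0.0195, and day 21 had -0.1 ± 0.09 (adjusted p = 0.62, exact permutation p = 0.0893). At day 6, without HNKO library 29 that value was -0.15 (adjusted p = 0.288). Cldn12 was also the steadiest claudin, with an SD within groups of 0.11 log2, smaller than that of all but 3.5% of the genes tested.

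Deviations of Cldn12 ran with hepatocyte markers and against duct markers. Its r was 0.76 with the summed hepatocyte markers (permutation p = 1e-05, the smallest that 100000 permutations can give, adjusted p = 0.0009; rho = 0.69, permutation p = 3e-05, adjusted p = 0.0027) and -0.67 with the summed duct markers (permutation p = 0.00244, adjusted p = 0.0274; rho = -0.63, permutation p = 0.00104, adjusted p = 0.0156). Without the 2 farthest libraries the r values were 0.65 and -0.66. Against the duct sum without Spp1, r was -0.54 (permutation p = 0.00325, adjusted p = 0.0325; rho = -0.61, permutation p = 0.00039, adjusted p = 0.0117; r = -0.56 without libraries 29 and 35). Cldn12 also ran against Cldn4 (r = -0.56, permutation p = 0.0045, adjusted p = 0.0343; rho = -0.49, permutation p = 0.00979, adjusted p = 0.0551; r = -0.48 without libraries 2 and 29). The same held for Cldn7 (r = -0.48, permutation p = 0.00709, adjusted p = 0.0399; rho = -0.48, permutation p = 0.0061, adjusted p = 0.0457; r = -0.45 without libraries 35 and 36). The hepatocyte sum was 102000 to 158000 CPM in WT and 67000 to 133000 CPM in HNKO, and 3 of the 8 markers were lower over the mean of the days, among them Alb, the albumin gene and the source of the Cre promoter (-0.46 ± 0.09 log2, adjusted p = 0.000157). In that comparison 36.4% of all genes were called in either direction, and 19.2% of all genes were called higher. By single day 2 of the 8 markers were lower at day 6, where 12.8% of all genes were called in either direction and 8.42% were called higher. At days 3, 12, and 21 edgeR called 0, where 2, 0, and 0 had an unadjusted p under 0.05. The part of these markers in the Cldn12 difference was not tested.

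Cldn14 (16: 93919031-94008837, minus strand), a claudin that blocks cation passage in kidney and inner ear, was at 4.12 to 12.4 CPM in WT and 5.09 to 12.1 CPM in HNKO, with overlap at each day and a mean difference of -0.02 ± 0.1 log2 (SE; 95% interval -0.23 to 0.18; adjusted p = 0.892). HNKO means were 7.41, 10.3, 7.86, and 6.75 CPM at days 3, 6, 12, and 21, and of the 9 claudins 1, Cldn14, had an unadjusted p under 0.05 for a day effect in HNKO (adjusted p = 0.2 in edgeR's test). No claudin was called for a day effect in HNKO, where 7.9% of all genes were, or in WT, where 5.84% were and 0 claudins had an unadjusted p under 0.05. DESeq2 also called 0 claudins in both, but with the library series as a covariate edgeR called 1, Cldn3, for a day effect in WT, where 2224 of 20297 genes were called.

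Per kilobase of exon, the scale on which genes can be compared, the mean levels of the claudins in WT liver spanned from Cldn3 to Cldn4. Cldn3 was highest at 64.7 ± 13.8 CPM per kilobase (SD, n = 19), above the next gene in 19 of 19 libraries. Cldn2 (30.7 ± 6.97), Cldn1 (26.2 ± 9.96), and Cldn12 (24.5 ± 1.13) overlapped in their ranges, and in library 16 Cldn1 (5.18) was below Cldn5 (5.51). Cldn12 was above Cldn5 in 19 of 19 libraries. Cldn5 (5.04 ± 0.834) and Cldn14 (3.79 ± 0.918) overlapped as well, and the duct claudins came last with Cldn7 (0.192 ± 0.0848), Cldn6 (0.106 ± 0.0556), and Cldn4 (0.0442 ± 0.037), each overlapping the next. In HNKO the order of the first 7 was the same, and Cldn4 (0.583 ± 0.462) stood between Cldn7 (0.696 ± 0.461) and Cldn6 (0.497 ± 0.207), above Cldn6 in 11 of 19 libraries. Even after the rise, the duct claudins remained below the lowest library of Cldn14 in HNKO (2.39 CPM per kilobase).

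**Figure D5:**
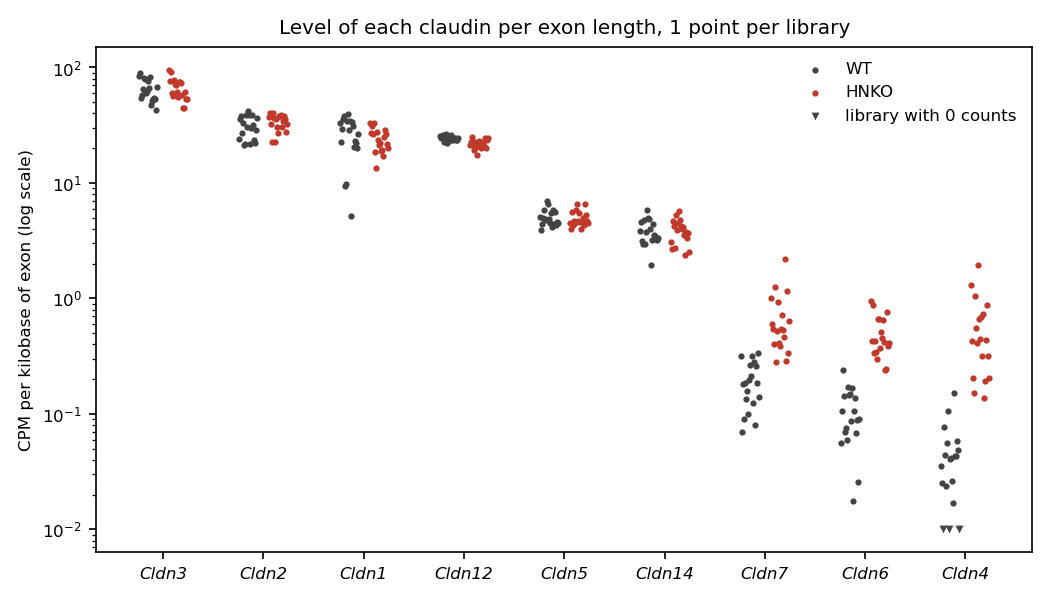
Level of each claudin in CPM per kilobase of exon (y axis, log scale) with 1 point per library, WT in grey and HNKO in red, and triangles at the bottom for the 3 WT libraries with 0 counts of Cldn4. The HNKO points of Cldn4, Cldn6, and Cldn7 on the right lie mostly above the WT points, with ranges over all days that overlap for Cldn4 and Cldn7 and meet at 0.242 for Cldn6.

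The other claudin genes of the table added little RNA. Of 25 further genes with a Cldn symbol, 10 had 0 counts in the 38 libraries, 10 had 1 to 100, and 5 passed the filter: Cldn8, Cldn15, Cldn20, Cldn23, and Cldn34c1. None of the 5 was called by edgeR at a single day, although Cldn23 had an unadjusted p under 0.05 at days 6, 12, and 21, Cldn15 at day 6, and Cldn34c1 at day 3. Of all genes, 20.9%, 26.6%, 24.5%, and 18% had an unadjusted p under 0.05 at days 3, 6, 12, and 21. The mean over the days called 2 of the 5, against 36.4% of all genes. Over the mean of the days Cldn23 was called higher (adjusted p = 0.000202), with group means of 0.0135 to 0.0874 CPM in WT and 0.177 to 0.269 CPM in HNKO, and no WT library over the filter's limit of 0.378 CPM (highest 0.176 CPM), so that it was tested because of HNKO. Its fitted fold depends on the small count added to libraries at 0. Cldn34c1 was 1.48-fold higher (log2 0.57 ± 0.21, adjusted p = 0.0312), and the log2 differences of Cldn8, Cldn15, and Cldn20 were 0 ± 0.19, 0.36 ± 0.31, and -0.06 ± 0.19 (adjusted p = 0.998, 0.384, and 0.829). Cldn9, which lies 137 bases from Cldn6, had 4 counts in all 38 libraries, and Cldn13, 29592 bases from Cldn4, had 7.

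Claudins act with other tight junction proteins, of which 31 were tested. At days 3, 6, 12, and 21, 2, 5, 3, and 1 of them were higher in HNKO and none lower, where 2.95%, 8.42%, 4.56%, and 2.21% of all genes were called higher. Over the mean of the days 14 were called, 11 higher and 3 lower, where 36.4% of all genes were called and 19.2% were higher, and the median log2 fold change was 0.06. The higher genes with the smallest p were Jam2, a junctional adhesion molecule (1.49-fold, adjusted p = 7.62e-08), Amot, a scaffold that binds YAP (1.49-fold, adjusted p = 1.12e-06), Marveld2, which encodes tricellulin of tricellular contacts (1.4-fold, adjusted p = 6.05e-06), and Marveld3 (1.76-fold, adjusted p = 0.000502). The 3 lower genes were Pard3, a polarity scaffold (-0.19 ± 0.05 log2, adjusted p = 0.00155), Amotl2 (-0.25 ± 0.08, adjusted p = 0.0117), and Cgnl1, a cingulin relative of the junction plaque (-0.3 ± 0.1, adjusted p = 0.0193). Occludin (Ocln) and the plaque protein gene Tjp1 had log2 differences of 0.18 ± 0.11 and -0.02 ± 0.05 (adjusted p = 0.209 and 0.795). The changes of this list were smaller in size than those of the 3 duct claudins, whose log2 differences over the mean of the days were 1.87 to 3.56, and no test between the lists was made.

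Deviations of the duct claudins from their group means were most like those of the following genes over the 38 libraries. Lgals3, which encodes galectin-3, and Kifc3, a kinesin, followed Cldn4 (r = 0.79 and 0.77), and B4galt6, a glycosyltransferase, and Gramd1b, a sterol transport protein, followed Cldn7 (r = 0.81 and 0.79). For Cldn6 the values were lower, with Ralb, a small GTPase, and Marcksl1 (r = 0.69 and 0.67), and for Cldn12 they were Tdo2 and Aldh8a1, enzymes of tryptophan breakdown (r = 0.84 and 0.83). These are the 2 highest of 12599 values each and are given without a test.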

How the data were processed

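Livers of 40 mice were sequenced after rRNA depletion as 51-bp paired-end reads. Per the study's methods and processing notes, the authors aligned them to GRCm38 with STAR 2.7.2b, counted fragments per gene of GENCODE M22 with featureCounts 1.6.4, and deposited raw counts, without normalization. Whether counting used the strand is not given in the sources used here, and Cldn3 shares 40 exon bases with Wbscr25 on the opposite strand (median 4 counts).

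The 38 libraries that passed the study's quality control were fitted together with edgeR 4.0.16 in R 4.3.3 (TMM scaling, 1 mean per genotype and day, quasi-likelihood test with the legacy dispersion). The study states edgeR 3.26.0, quasi-likelihood tests, and a model with 1 term for the group, and its scaling is not given in the sources used here. The filter (minimum count 10, minimum total count 15, minimum proportion 0.7) kept 20297 of 55487 genes and 99.937% of counts. All 9 claudins passed it, Cldn4 through 16 HNKO and 0 WT libraries over its limit of 0.378 CPM, Cldn6 through 19 and 1, and Cldn7 through 19 and 6, so that Cldn4 and Cldn6 were tested because of HNKO. P-values were adjusted by Benjamini-Hochberg over the genes tested, SEs are those the F statistic implies, and 95% intervals use the normal approximation. CPM use the TMM library sizes, and log2 CPM add a prior count of 2. With 16151037 to 64181492 counts per library, 1 fragment is a small fraction of a CPM, so precision for Cldn4, Cldn6, and Cldn7 is limited by counts of few fragments per WT library. All 74 pairs of libraries within groups were further apart than counting error allows (lowest chi-square per gene 12.5), and each was counted as 1 replicate.

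Single claudins were also compared at each day by exact permutation tests, two-sided. Correlations used deviations of log2 values from group means, 100000 permutations within groups, and Benjamini-Hochberg adjustment over 90 relations. Symbols, positions, and exon lengths came from the gene tables and GENCODE M21 of GRCm38. The script for the tests was tested on simulated data. The claudins, their cell type roles, the 31 other tight junction genes, and the marker lists were chosen with earlier results of these data known. Named genes are the claudins, further Cldn genes over the filter, up to 4 higher and 4 lower other tight junction genes with the smallest p over the mean of the days, up to 3 genes per marker list, and the 2 genes most like a claudin in pattern for at most 5 claudins, which were picked after their values were seen. Ocln, Tjp1, Cldn9, Cldn13, Krt19, and Sox9 were named after their values were seen. Alternatives were RLE scaling, DESeq2 1.42.0, no filter, a stricter filter (10 or more counts per library throughout), a fit with the failed libraries added, separate fits for each day, the newer edgeR dispersion, robust estimation, the library series as a covariate, a prior count of 0.5, and leaving out each library.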

Additional observations from a re-analysis of the deposited data

Results flagged for a closer look

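In 6 of the 63 combinations of claudin and group tested, 1 library stood apart from the others by Dixon's test, where chance gives about 3.15. Cldn1 was 25.1 CPM in WT library 16 of day 12, against 140 to 166 CPM in the 4 others. Cldn4 was 3.57 CPM in HNKO library 29 of day 6, against 0.751 to 1.2 CPM. Cldn7 was 4.29 CPM in HNKO library 35 of day 12, against 0.563 to 1.4 CPM. The other 3 were Cldn4 at 0.274 CPM in WT library 34 of day 12 (9 fragments, others 0.0305 to 0.075 CPM), Cldn4 at 0 CPM in WT library 41 of day 21 (others 0.0779 to 0.106 CPM), and Cldn5 at 7.99 CPM in WT library 20 of day 21 (others 6.08 to 6.49 CPM).

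The 2 HNKO libraries of day 21 that failed quality control, which no comparison above uses, also held claudin reads. In library 18, Cldn4 was 1.87 CPM, Cldn6 0.496 CPM, and Cldn7 1.87 CPM, each above the highest WT library of that day (0.106, 0.237, and 0.663 CPM). In library 17 all 3 had 0 counts at a total of 12287423 counts, which allows up to 0.23 CPM (3 counts, counting error only), while Cldn5 was 9.25 CPM, above the WT libraries of that day (6.08 to 7.99 CPM).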

How the results depend on the processing

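No paired analysis was possible because the groups share no replicate numbers. Under the other settings, 367 of 380 values of single claudins kept their side of the threshold, 13 lost the call, and 0 called values reversed. With 1 library left out 664 of 684 kept their side, 20 lost the call, and 0 called values reversed. Values that were not called could change sign and still counted as kept. Cldn3 at day 21, for example, was 0.05 log2 in the main fit and -0.2 to 0.29 under the other settings. With at least 10 counts in every library, Cldn4, Cldn6, and Cldn7 are not tested, which by construction leaves 0 claudins called at days 3, 6, 12, and 21 and 1 (Cldn12) over the mean of the days. With all 40 libraries 2 claudins were called at day 6, Cldn4 and Cldn6, and Cldn7 had adjusted p = 0.0848, 0.0621, and 0.0635 at days 6, 12, and 21. With the library series as a covariate 1 claudin, Cldn3, had a day effect in WT. The causes of the last 2 changes were not tested. Over all genes, adding the failed libraries moved the calls at days 3, 6, 12, and 21 from 945, 2596, 1588, and 634 to 331, 1321, 624, and 1350, fits of 2 groups moved the first 3 of these to 420, 1325, and 867, and DESeq2 gave 1428 at day 3, 994 at day 21, and 12 against 0 for the interaction. The day effect in WT moved from 1185 genes to 581 with all 40 libraries, 1856 in DESeq2, and 2224 with the series covariate. Cldn7 at day 21 also lost its call without a filter (adjusted p = 0.0562), in the fit of 2 groups (0.0526), and with the series covariate (0.0698), and at day 12 in the fit of 2 groups (0.0633). In that fit Cldn4 did not pass the filter at day 3. Cldn12 at day 6 was called in 3 of 9 other settings, with adjusted p from 0.03 to 0.205.

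With 1 library left out, the number of claudins called was 3 at day 3, 2 to 4 at day 6, 2 to 3 at day 12, 0 to 3 at day 21, and 4 over the mean of the days, and it was 0 for the interaction and both day effects. The 0 at day 21 arose without HNKO library 37, and the 2 at day 6 without WT library 8 or 10 or HNKO library 29. Cldn7 kept its call in 5 of 9, 9 of 11, and 2 of 8 such fits at days 6, 12, and 21, with adjusted p of at most 0.134, 0.0836, and 0.56. Over the mean of the days, Cldn4, Cldn6, Cldn7, and Cldn12 were called in all 38. Of the 36 exact tests of single claudins at single days, 14 had p under 0.05, against 13 with all 40 libraries and 14 with a prior count of 0.5. Depth limits Cldn4, Cldn6, and Cldn7, at 0 to 24 fragments per WT library.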
